A study of Mus musculus with 19 samples.

Results

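A set of 10 transcripts that are abundant in the mouse prostate was followed across prostate tissue, fibroblasts and renal grafts: Sbp, Pbsn, Spink3, Msmb, 9530002B09Rik, Defb50, Tgm4, 5430419D17Rik, 9530053A07Rik and Ms4a5. These 10 genes of the 23284 in each deposited table were chosen by their high level in the 6 prostate libraries. Their MEF values were also part of the choice, and all 10 were found in both tables. Their levels in prostate, in the grafts and in fibroblasts had already been seen when the list was made. The differences between prostate and the other groups are therefore given as a description, with no test. Over all genes those contrasts called 48.3% of 14560 genes between prostate and MEFs and 33.3% of 16353 between prostate and the first-table grafts, and no count of the 10 genes is read against these shares. The genes are treated as abundant prostate secretory proteins, with 1 exception in the list: Ms4a5 encodes a member of the membrane-spanning 4A family and is not a secreted protein.

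The prostate gland pours a protein-rich fluid into the ejaculate, and its luminal epithelial cells make that fluid. In the mouse, the anterior, dorsal, lateral and ventral lobes each secrete their own mixture, and androgen keeps these genes active. Secreted proteins enter the endoplasmic reticulum as they are made, are folded there with the help of chaperones and then pass to the Golgi. A tissue that makes large amounts of secretion therefore also needs a large secretory machinery.

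RNA-seq libraries came from 6 samples of mouse embryonic fibroblasts (MEFs), 6 samples of prostate and 7 renal grafts. The MEFs were grown from the limbs of C57BL/6 embryos at E13.5 that carried one lacZ reporter allele, with male and female littermates pooled, and were sorted to remove blood, endothelial and epithelial cells. The prostate samples were wild-type C57BL/6 tissue at 6 weeks of age. Each graft held induced epithelial cells (iEpt cells), which are MEFs given retroviral human OCT4, SOX2, KLF4 and c-MYC and then kept in basal epithelial medium with dexamethasone. The cells were mixed with rat embryonic urogenital mesenchyme and grown for 6 weeks under the kidney capsule of male nude mice with a testosterone pellet. In iEpt+NAF grafts the cells had also received lentiviral transgenes, mouse Foxa1 among them. The sample labels describe all 7 grafts in the same words. The 5 grafts in the first table (FS002, FS003, FS005, FS007 and FS008) are the ones that the study's supplement names as iEpt+NAF. FS022 and FS023, in a second table that was normalized apart, were taken as iEpt only grafts by elimination. Kidney of the host and cells of the rat mesenchyme may both be present in a graft, and in such mixed tissue fewer cells of a type and less RNA per cell cannot be told apart.

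The tables hold 1 value per gene and library on a log2 scale, where 0 reads correspond to a value of -0.31. The 17 libraries of the first table held an estimated 16767295 to 26152350 reads on genes, FS022 held 6629666 and FS023 9662062. For 3 reads the value was 1.68 to 2.34 in the first table, 3.12 in FS022 and 2.70 in FS023. At the low values that nearly all grafts and MEFs had for the 10 genes, the read counts printed are approximate and rounded to whole reads. Levels in RPM are reads per 1000000 counted reads of the library. Lower values scatter more: the SD of 1 value between the most alike MEF libraries was 0.054 at values of 10 to 12, 0.31 at 4 to 6 and 1.06 at 0 to 2. Floors and intervals cover counting error only. The defining markers were read in each group. All 7 luminal markers (Krt8, Krt18, Krt19, Epcam, Cd24a, Cldn3 and Cldn7) were called higher than in MEFs both in prostate and in the iEpt+NAF grafts, and all 7 fibroblast markers were called lower in the grafts than in MEFs. All 7 kidney markers were called higher in the grafts than in MEFs, and their summed level was 92.6 to 12228 RPM in the 5 grafts, 0.487 to 4.88 in prostate and 7.06 to 18.8 in MEFs. Of the blood markers, Ptprc (CD45) ran from 1.31 to 8.83 in the MEF libraries, although the sort was against CD45, and from 6.71 to 8.37 in prostate on the log2 scale, while the 2 globin genes were under the filter on low values.

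Before the genes are described, 4 of the MEF libraries need attention. In FS015, FS016, FS017 and FS018 each of the 10 prostate genes had at least 6 reads, while FS019 and FS020 had 0 to 3 reads of 8 of them, all but Tgm4 and 9530053A07Rik. MEF libraries fell into like pairs over the genes with enough reads. FS015 was closest to FS020 (chi-square per degree of freedom of 25.4), FS016 to FS019 (87.4) and FS017 to FS018 (7.68), while other MEF pairs lay at 593 to 960. The 10 genes together had 10167 reads in FS015 and 192 in its like library FS020. They had 2943 reads in FS016 and 287 in FS019, and 3532 and 2519 in FS017 and FS018. Whether these reads are carry-over from prostate libraries was not tested, and low values of these genes in MEFs or grafts are to be read with that limit. No pair was within sampling noise, and the 6 libraries were kept as 6 samples. Sampling noise covers counting only, so this does not show that the libraries of a like pair are independent. P-values over 6 MEF samples hold that limit. The comparison of the 10 genes between grafts and MEFs is also given without FS015 to FS018.

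In prostate the 10 genes took 14.9% to 22.1% of all counted reads, with a mean of 18.7% ± 3.0 (SD, n = 6). By reads they filled ranks 1 to 6 among all genes (Sbp, 9530053A07Rik, Tgm4, Pbsn, Spink3 and 9530002B09Rik, in that order), and 5430419D17Rik, Defb50, Msmb and Ms4a5 stood at ranks 12, 17, 27 and 155. Long genes collect more reads, so levels of different genes are compared per kilobase of exon. Sbp then led at 77661 ± 17927 RPM per kilobase (SD, n = 6), followed by Spink3 at 20868 ± 7385 and Pbsn at 11807 ± 3420. 9530002B09Rik came next at 9669 ± 1061 and Defb50 at 6504 ± 3657. 9530053A07Rik, with 11843 exon bases against 373 to 3936 in the other genes, dropped from the second place by reads to 5416 ± 2099. Tgm4 was at 4919 ± 1631, Msmb at 2990 ± 1897, 5430419D17Rik at 1161 ± 633 and Ms4a5 at 580 ± 250. Sbp was above Spink3, 9530002B09Rik above Defb50, and Msmb above 5430419D17Rik in 6 of 6 prostate libraries. 9530053A07Rik and Tgm4 exchanged places in 3 of 6, and Defb50 was above 9530053A07Rik, and Tgm4 above Msmb, in 4 of 6.

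**Figure D1:**
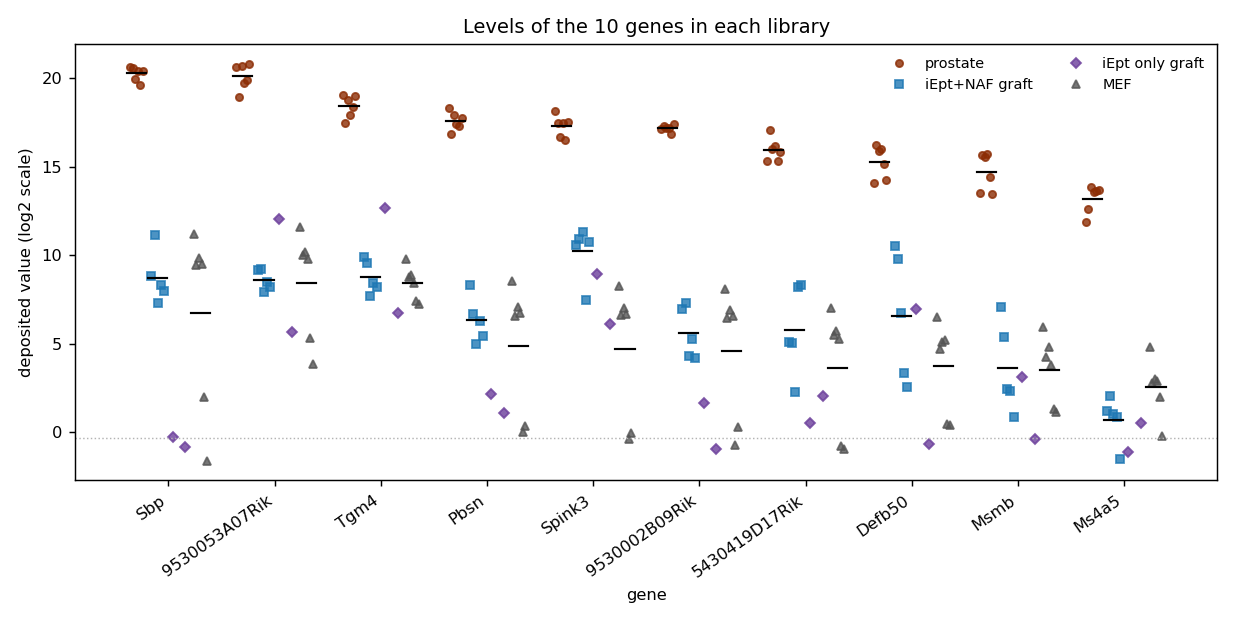
Deposited value (log2 scale) of each gene in each of the 19 libraries, with genes ordered by their prostate mean, points for single libraries, black bars for group means (n = 6 prostate, 5 iEpt+NAF grafts, 6 MEFs) and the dotted line at 0 reads (-0.31). Every prostate library lies above every graft and MEF library for all 10 genes, and the MEF points of most genes split into 4 higher and 2 lower libraries.

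Sbp encodes the spermine-binding protein, an androgen-regulated glycoprotein of prostatic fluid. It lies on chromosome 17 from 24079342 to 24087147 in mm9. Its log2 value in the 6 prostate libraries ran from 19.62 to 20.67 with a median of 20.42. In the iEpt+NAF grafts it was 8.81, 11.13, 7.30, 8.32 and 7.99, in the order FS002, FS003, FS005, FS007, FS008. FS003 stood above the other 4 grafts, and no graft reached MEF library FS015. The MEF values were 11.23, 9.48, 9.86 and 9.49 in FS015 to FS018 and 1.99 and -1.61 in FS019 and FS020. Both iEpt only grafts had 0 Sbp reads, which by a limit of 3 reads allows up to 0.453 RPM in FS022 and 0.310 in FS023.

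A close relative of Sbp, singled out after its values were seen, was distributed in another way. Sbpl, the spermine-binding protein-like gene next to Sbp on chromosome 17, had 152 to 567 reads in 5 prostate libraries, which was 0.0159% to 0.0295% of their Sbp reads. In the remaining library, FS009, Sbpl had 161719 reads, 11.6% of Sbp. In the 5 iEpt+NAF grafts in the order above Sbpl had 1158, 856, 1073, 49 and 31 reads, so that FS002 and FS005 held more reads of Sbpl than of Sbp. MEF libraries FS015 to FS018 held 0 or 1 Sbpl read each, beside 774 to 3176 reads of Sbp. How reads shared by the 2 related genes were assigned is not stated in the sources used here. In limma, Sbpl was called higher in the grafts than in MEFs by 7.01 on the log2 scale (standard error 0.96, adjusted p = 7.52e-05). No MEF library held more than 2 Sbpl reads, so the gene passed the filter on low values only through the grafts. Because Sbpl was picked after its values were seen, this p-value is no independent evidence. Between prostate and grafts the log2 difference of Sbpl, 1.84, was not called (adjusted p = 0.403, limma). That mean difference rests on FS009, at 17.56, while the other 5 prostate libraries were at 7.35 to 8.89. Grafts FS002, FS003 and FS005, at 9.44, 9.12 and 9.57, were above those 5.

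Pbsn, Tgm4 and 9530053A07Rik moved together among the prostate libraries in the deposited values, and the bases before their transcription starts are shown for that reason. The sequences are the 250 bases upstream of the start in RefSeq (GRCm38.p6), read on the gene's strand: chrX:77853501-77853750 (minus strand) for Pbsn, chr9:123034491-123034740 (plus) for Tgm4 and chr7:28129216-28129465 (plus) for 9530053A07Rik. Capitals mark AGAACA, a half-site of the androgen response element, and TATAAA, the TATA box.
Pbsn: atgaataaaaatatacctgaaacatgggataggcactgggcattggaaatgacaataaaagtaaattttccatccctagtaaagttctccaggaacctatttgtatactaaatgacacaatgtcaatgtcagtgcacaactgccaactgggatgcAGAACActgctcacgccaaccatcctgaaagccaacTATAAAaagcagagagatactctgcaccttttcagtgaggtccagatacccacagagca
Tgm4: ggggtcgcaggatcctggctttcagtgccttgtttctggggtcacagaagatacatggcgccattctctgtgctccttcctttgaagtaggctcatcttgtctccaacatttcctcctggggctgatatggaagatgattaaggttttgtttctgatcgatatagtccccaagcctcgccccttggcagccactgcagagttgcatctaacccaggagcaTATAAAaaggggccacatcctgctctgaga
9530053A07Rik: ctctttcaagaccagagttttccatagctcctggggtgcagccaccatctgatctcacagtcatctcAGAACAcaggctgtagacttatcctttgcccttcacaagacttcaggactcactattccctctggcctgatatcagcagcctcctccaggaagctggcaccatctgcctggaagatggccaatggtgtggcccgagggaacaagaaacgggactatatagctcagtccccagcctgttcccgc
The half-site lay 95 to 90 bases before the start in Pbsn and 183 to 178 in 9530053A07Rik, and the TATA box lay 59 to 54 bases before it in Pbsn and 30 to 25 in Tgm4.

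A window was found in RefSeq for 7 of the 10 genes, all but Spink3, Msmb and Defb50. On either strand the half-site AGAACA was present upstream of 5 of the 7 (Pbsn, Sbp, 9530002B09Rik, 9530053A07Rik and 5430419D17Rik, which RefSeq names Cdcp3), against 16.1% of all 32851 promoter windows and 18.2% of all genes. TATAAA was present in 3 of the 7 (Pbsn, Tgm4 and 5430419D17Rik) against 12.4% of windows. The forkhead motif TGTTTAC, found in 3.17% of windows, was in none of the 7. The full palindromic androgen response element was in none of the 7 and in 3 of all windows. These letters describe the windows and say nothing of binding.

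Pbsn encodes probasin, a lipocalin whose promoter is widely used to direct transgenes to prostate epithelium. Its log2 value in prostate ran from 16.88 to 18.32 with a median of 17.60. In the iEpt+NAF grafts FS002, FS003, FS005, FS007 and FS008 it had 532, 156, 43, 92 and 46 reads. In MEFs FS015 to FS018 it had 495, 110, 157 and 113 reads, and it had 0 reads in FS019 and FS020. The graft and MEF ranges overlapped, and 1 read of Pbsn was found in each iEpt only graft.

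Tgm4 encodes prostate transglutaminase, which cross-links seminal vesicle proteins into the copulatory plug. It had log2 values of 17.49 to 19.04 in prostate with a median of 18.58. The 5 iEpt+NAF grafts had 9.92, 9.56, 7.70, 8.45 and 8.19, and the 6 MEF libraries 9.82, 8.77, 8.91, 8.46, 7.43 and 7.26 from FS015 to FS020. It was the only gene of the 10 with over 100 reads in FS019 and FS020, at 228 and 176. Tgm4 lies on chromosome 9 from 122943857 to 122976679 in mm9, and 830 of its exon bases are shared with Zdhhc3 on the other strand. On the log2 scale Zdhhc3 was at 10.69 ± 0.10 (SD, n = 6) in MEFs, 10.76 ± 0.39 (SD, n = 5) in the iEpt+NAF grafts and 11.95 ± 0.49 (SD, n = 6) in prostate. No source used here states that reads were counted by strand, and without strand the reads of the shared bases cannot be told apart.

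9530053A07Rik, a gene of chromosome 7 (28914485 to 28949830 in mm9) still known by its clone name, was with Sbp the largest source of reads. Its log2 value in prostate was 18.93 to 20.83 with a median of 20.28. The iEpt+NAF grafts lay close together at 9.19, 9.23, 7.92, 8.48 and 8.19. The MEF values of 11.61, 10.01, 10.18 and 9.78 in FS015 to FS018 were all above every graft, and FS019 and FS020 had 5.31 and 3.84, below every graft.

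Spink3 encodes a Kazal-type inhibitor of serine proteases, made in the pancreas and in male accessory glands. Its log2 value in prostate ran from 16.51 to 18.14 with a median of 17.47. In the iEpt+NAF grafts, in the same order, it had 2565, 3014, 3665, 208 and 1966 reads, against 411, 111, 145 and 110 in FS015 to FS018 and 0 in FS019 and FS020. In the same libraries the log2 values were 10.59, 10.93, 11.34, 7.45 and 10.78 in the grafts and at most 8.29 in MEFs. FS002, FS003, FS005 and FS008 were above every MEF library, and FS007 fell within the MEF range.

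Defb50 encodes a β-defensin, a family of small antimicrobial peptides, and lies on chromosome 8 from 22934011 to 22941768 in mm9. It had log2 values of 14.07 to 16.21 in prostate with a median of 15.55. The iEpt+NAF grafts had 2468, 1368, 147, 10 and 5 reads, and MEFs FS015 to FS018 had 120, 28, 38 and 39. FS002 and FS003 held far more Defb50 reads than the other 3 grafts, and FS007 and FS008 were below the 4 MEF libraries.

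5430419D17Rik, the CUB domain gene Cdcp3 of RefSeq on chromosome 7 (138317916 to 138394459 in mm9), had log2 values of 15.35 to 17.09 in prostate with a median of 15.93. The grafts richest in it were the 2 poorest in Defb50. FS007 and FS008 had 354 and 356 reads, while FS002, FS003 and FS005 had 54, 49 and 5. MEFs FS015 to FS018 had 169, 49, 58 and 40 reads.

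Msmb encodes β-microseminoprotein, a small cysteine-rich protein of seminal fluid. Its log2 value ran from 13.47 to 15.75 in prostate with a median of 14.99. FS002 had 224 reads and FS003 61, FS005, FS007 and FS008 had 6, 4 and 1, and MEFs FS015 to FS018 had 81, 21, 30 and 13. Only FS002 was above every MEF library. 9530002B09Rik, on chromosome 4 (122366518 to 122382372 in mm9), was the steadiest of the 10 in prostate at 16.87 to 17.42 with a median of 17.20. It had 205, 241, 26, 44 and 19 reads in the grafts and 356, 100, 135 and 101 in FS015 to FS018. Ms4a5 was the least abundant, at 11.87 to 13.88 in prostate with a median of 13.60. It had 0 to 4 reads in every iEpt+NAF graft and 35, 6, 8 and 6 reads in FS015 to FS018.

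The level of each gene was then set against its own mean in prostate, after conversion of the values to normalized counts. The question was whether the graft reads differ from the fraction found in MEFs FS015 to FS018. In FS015 the 10 genes lay between 0.178% and 0.250% of their prostate mean, a 1.40-fold range. They lay between 0.0453% and 0.114% in FS016, 0.0621% and 0.125% in FS017, and 0.0368% and 0.0916% in FS018. Tgm4 was the highest gene in each of the last 3. Without Tgm4 the other 9 genes spanned a 1.40-fold range in FS015, 1.79 in FS016, 1.47 in FS017 and 2.12 in FS018. The SD of the log2 percent over all 10 genes was 0.21, 0.40, 0.29 and 0.36 in the 4 libraries, beside a scatter of 1 value of 0.53 at log2 levels of 2 to 4, 0.31 at 4 to 6 and 0.084 at 8 to 10. FS019 and FS020 had a median of 0.0004% and 0.0001%.

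**Figure D2:**
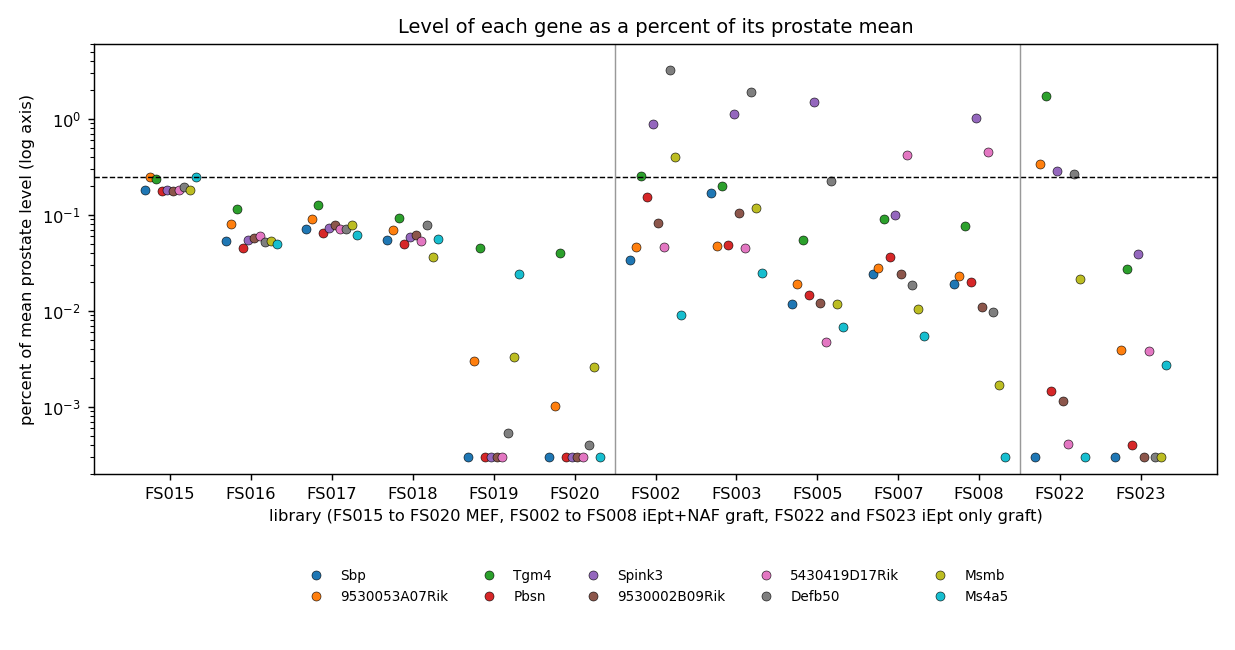
Level of each gene as a percent of its mean in the 6 prostate libraries (log axis), per library, for 6 MEF, 5 iEpt+NAF and 2 iEpt only libraries, where each point is 1 gene, values under 0.0003% are drawn at 0.0003% and the dashed line is the highest MEF value, 0.250%. The points of FS015 to FS018 form tight clusters, and the highest point of an iEpt+NAF graft is at least 75.6 times its lowest.

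In the iEpt+NAF grafts the 10 genes lay at widely different percents of their prostate mean. The percent ran from 0.0091% (Ms4a5) to 3.20% (Defb50) in FS002, from 0.0247% (Ms4a5) to 1.92% (Defb50) in FS003, and from 0.0048% (5430419D17Rik) to 1.49% (Spink3) in FS005. It ran from 0.0055% (Ms4a5) to 0.418% (5430419D17Rik) in FS007 and from 0 (Ms4a5) to 1.01% (Spink3) in FS008. Over the 8 genes with at least 20 reads in each of FS015 to FS018, the highest percent was 94.2, 42.4, 314, 22.7 and 105 times the lowest in the 5 grafts, and 1.38 to 2.52 times in the 4 MEF libraries. That minimum was set on the MEF libraries alone, so graft values of as few as 5 reads entered. Over all 10 genes the 4 MEF libraries spanned 1.40 to 2.52 times. Of the 50 graft values, 10 were above 0.250%, the highest in any MEF library.

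These 10 values belonged to 5 genes. Spink3 was above the MEF maximum in 4 grafts, at 0.887%, 1.13%, 1.49% and 1.01% in FS002, FS003, FS005 and FS008. Defb50 was above it in FS002 and FS003, at 3.20% and 1.92%, and 5430419D17Rik in FS007 and FS008, at 0.418% and 0.453%. Msmb (0.401%) and Tgm4 (0.254%) were above it in FS002 alone, and Tgm4 only narrowly. Sbp, Pbsn, 9530002B09Rik, 9530053A07Rik and Ms4a5 stayed below the maximum in all 5 grafts. For Pbsn the graft values were 0.152%, 0.0481%, 0.0145%, 0.0366% and 0.0198%, all under the 0.178% of FS015 and the last 3 under each of FS015 to FS018.

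Prostate libraries differ among themselves, so the MEF and graft profiles were also divided by each prostate library alone. For FS015 to FS018 the closest single library was FS013 in all 4, with an SD over the 10 genes of 0.23, 0.48, 0.43 and 0.40 on the log2 scale. The grafts were closest to FS010 (FS002 and FS003) or FS009 (FS005, FS007 and FS008), with SDs of 1.60 to 2.56. For FS008 the SD leaves out Ms4a5, which had 0 reads there. Against the prostate mean the 4 MEF libraries gave 0.21 to 0.40 and the grafts at least 1.78.

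Genes outside the 10 were examined in the same way. No gene outside the 10 had a mean prostate value of at least 16 and no more than 3 reads in both FS019 and FS020. With a minimum of 14, chosen after the values were seen, there were 5 such genes, at 0.174% to 0.234% in FS015 and 0.0413% to 0.0927% in FS016 to FS018. With a minimum of 12, also chosen after the values were seen, there were 24 genes with medians of 0.206% in FS015, 0.0569% in FS016, 0.0670% in FS017 and 0.0574% in FS018. Their range was 0.167% to 0.319% in FS015 and 0.0110% to 0.105% in FS016, and it reached 3.64% in FS017 and 3.57% in FS018. The 5 genes of the higher minimum were at 0.445% to 34.9% in graft FS002 and 0.0110% to 36.3% in FS008.

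The make-up of the reads was also compared, without reference to the prostate mean. Sbp and 9530053A07Rik together gave 68.6% to 73.1% of the reads of the 10 genes in the 6 prostate libraries and 68.2% to 71.9% in FS015 to FS018. In the iEpt+NAF grafts they gave 11.8% to 42.1%. Spink3 led in FS002, FS005 and FS008 with 27.3%, 77.2% and 59.1%, against 2.75% to 6.19% in prostate and 3.75% to 4.35% in FS015 to FS018. Sbp led in FS003 with 33.2%, and 9530053A07Rik in FS007 with 22.0%. In iEpt only graft FS022 Tgm4 led with 57.6%, beside 6.10% to 12.9% in prostate.

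**Figure D3:**
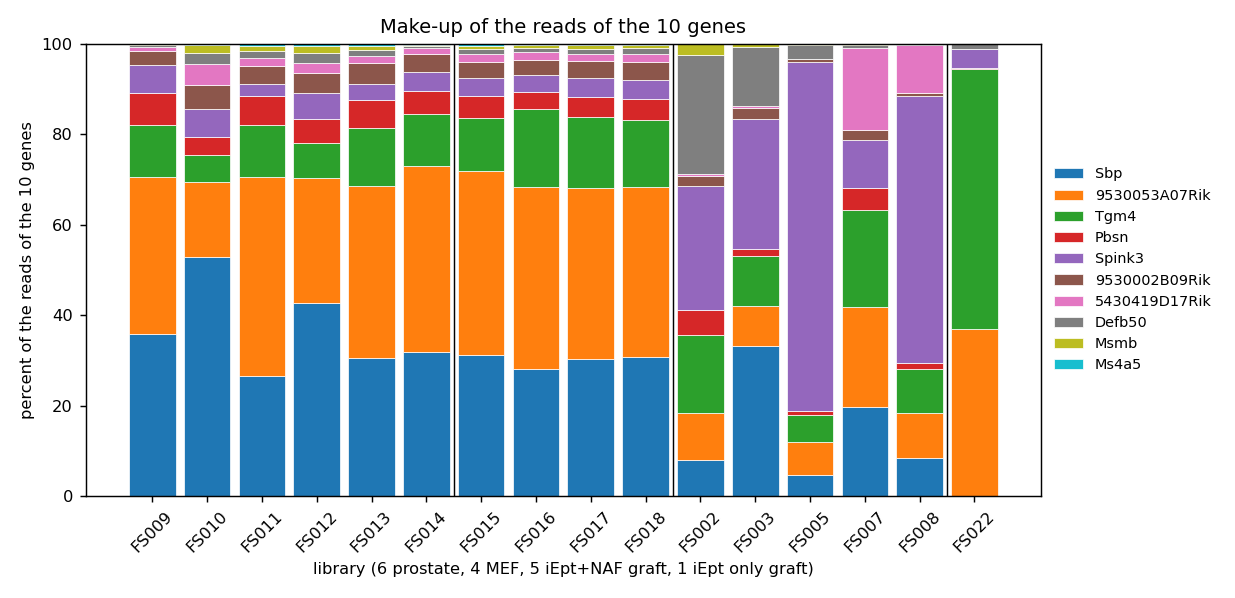
Stacked bars of the reads of the 10 genes in each library, as a percent of their sum, for 6 prostate, 4 MEF (FS015 to FS018), 5 iEpt+NAF and 1 iEpt only library (FS022), in reads and not per length. Sbp and 9530053A07Rik make up 68.2% to 73.1% of every prostate and MEF bar and at most 42.1% of a graft bar.

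As a share of all counted reads the 10 genes together were at 0.0400%, 0.0468%, 0.0239%, 0.0103% and 0.0191% in the 5 iEpt+NAF grafts, a mean of 0.0280% ± 0.0151 (SD, n = 5). The share was 0.0418% in MEF FS015, 0.0128%, 0.0160% and 0.0123% in FS016 to FS018, and 0.0011% and 0.0009% in FS019 and FS020. The grafts and the 4 MEF libraries therefore overlapped in the total and differed in which genes made it up.

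The grafts were compared with MEFs gene by gene in limma over all genes. Spink3 was called higher in the grafts (log2 fold change 5.53, standard error 1.66, adjusted p = 0.0123), and an exact two-sided permutation test over 5 grafts and 6 MEFs gave p = 0.0087. These values had been seen when the list was made, so the p-values are no independent evidence. Spink3 was the only call among the 9 genes tested, beside 41.9% of all 16121 genes tested. Over all genes 4815 (29.9%) were called higher and 1942 lower, a split that quantile normalization turned to 2828 and 3830. Ms4a5 was under the filter on low values. The other 8 genes had log2 fold changes of 0.08 to 2.86, with Defb50 at 2.86 (adjusted p = 0.158) and Msmb at 0.08 (adjusted p = 0.962). A p-value that misses the threshold does not show that these genes were alike in grafts and MEFs.

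Without MEF libraries FS015 to FS018 the same comparison called 6 of the 9 genes higher, beside 19.1% of all genes. Spink3 then had a log2 fold change of 10.45 (adjusted p = 0.000716), Sbp 8.52 (adjusted p = 0.0032), 5430419D17Rik 6.65 (adjusted p = 0.0223), Pbsn 6.16 (adjusted p = 0.0037), 9530002B09Rik 5.80 (adjusted p = 0.0076) and 9530053A07Rik 4.03 (adjusted p = 0.0022). Defb50 (6.16, adjusted p = 0.077), Msmb (2.41, adjusted p = 0.298) and Tgm4 (1.42, adjusted p = 0.111) were not called. The 4 libraries were left out because they hold reads of these genes, which largely fixes the direction of this change in the count, and only 2 MEF libraries enter the fit. All 9 genes but Tgm4 and 9530053A07Rik had 0 to 3 reads in FS019 and FS020. They passed the filter on low values only through the grafts and could hardly be called lower. The list was made with these values known, so neither count is independent evidence about the 10 genes.

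Markers of other tissues varied among the grafts, and their part in these values was not tested. The summed level of the 7 kidney markers was 5973, 92.6, 12228, 456 and 10507 RPM in FS002, FS003, FS005, FS007 and FS008. Spink3 was high in 3 grafts with high kidney sums and as high in FS003, which had the lowest. The 6 seminal vesicle markers, of which 5 were tested and 4 called higher than in MEFs, summed to 75.1, 150.2, 1393, 0.898 and 0.739 RPM, against 0.835 to 3.88 in prostate and 0.0588 to 0.366 in MEFs. The 2 grafts with the lowest sums, FS007 and FS008, were the 2 with the most 5430419D17Rik. The 4 basal markers, all called higher than in MEFs, summed to 2615, 2110, 522, 573 and 18.5 RPM, against 233 to 400.5 in prostate and 0.719 to 8.23 in MEFs, and the 2 highest grafts were those with the most Defb50.

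The 2 iEpt only grafts held the 10 genes at different levels. In FS022 Tgm4 had 2791 reads, or 421 RPM (exact 95% binomial interval 406 to 437), against 14.7 to 68.9 in the 5 iEpt+NAF grafts and 25437 in the highest prostate library. 9530053A07Rik had 1788 reads, or 270 RPM (257 to 282), against at most 41.5 in the iEpt+NAF grafts and 169.7 in MEFs. Spink3 had 205 reads (30.9 RPM, 26.8 to 35.5) and Defb50 52 reads (7.84 RPM, 5.86 to 10.3), both below the highest iEpt+NAF graft. Sbp, 5430419D17Rik and Ms4a5 had 0 reads in FS022, Pbsn and 9530002B09Rik had 1, and Msmb had 3.

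In FS023 the same 3 genes led at far lower counts. Tgm4 had 63 reads, Spink3 41 and 9530053A07Rik 30, and the other 7 genes had 0 to 2. The 10 genes together took 0.0730% of the reads in FS022 (exact 95% interval 0.0710% to 0.0751%) and 0.0014% in FS023 (0.0012% to 0.0017%). Zdhhc3, whose exons overlap Tgm4, was at 11.07 in FS022 and 10.55 in FS023 on the log2 scale of their own table, and the seminal vesicle markers summed to 980 and 0.228 RPM. With 1 library each, normalized apart from the others, no test was made.

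Among the 6 prostate libraries the genes did not rise and fall as one. 9530002B09Rik had an SD of 0.19 on the log2 scale and Sbp 0.41, while Msmb had 1.08 and Defb50 0.93. The reads of Msmb, on the normalized scale, differed 4.87-fold between the highest and the lowest library, and those of 9530002B09Rik 1.46-fold. Pbsn, Tgm4 and 9530053A07Rik were high in FS009, FS011 and FS014 and lowest in FS010. Msmb and Defb50 were lowest in FS009 and FS014 and high in FS010, FS011 and FS012. 5430419D17Rik was highest in FS010, at 17.09 against at most 16.16 in the other 5.

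**Figure D4:**
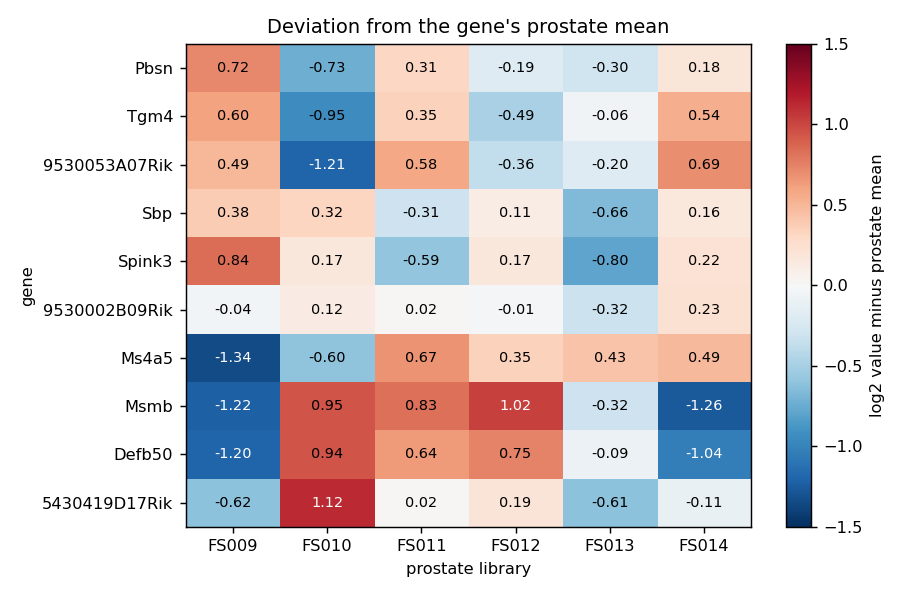
Log2 value of each gene in each of the 6 prostate libraries minus the gene's mean over the 6, with red for higher and blue for lower. Pbsn, Tgm4 and 9530053A07Rik (top rows) are lowest in FS010 at -0.73, -0.95 and -1.21, where Msmb, Defb50 and 5430419D17Rik (bottom rows) are at 0.95, 0.94 and 1.12.

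Pearson correlations over the 6 prostate libraries are a description of these samples, whose points share tissue mix and depth, with Spearman's rho given after each. Tgm4 and 9530053A07Rik had r = 0.97 (rho = 0.83), Pbsn and Tgm4 0.91 (0.89), and Pbsn and 9530053A07Rik 0.89 (0.71). Msmb and Defb50 had r = 0.99 (0.89), and Sbp and Spink3 0.94 (0.94). These were the 5 of 45 pairs with r above 0.8, and Tgm4 and Defb50, at -0.80 (-0.94), were the 1 pair below -0.8. The log2 difference between Tgm4 and Defb50 ranged from 1.28 in FS010 to 4.97 in FS009. Which lobes each sample held is not given in the labels.

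The genes most like the 10 over the 17 libraries of the first table, by Pearson r with the mean of the 10, were Fam115e (0.99), A630095E13Rik (0.99), Gm5615 (0.98), Fgl1 (0.98) and Glb1l3 (0.97). Fam115e was at 15.53 ± 0.51 in prostate (SD, n = 6), 4.90 ± 2.18 in the grafts (SD, n = 5) and 3.78 ± 3.23 in MEFs (SD, n = 6). Over the 6 prostate libraries alone, the genes most like Pbsn were 9530003J23Rik, Mcoln3, Cdk18, 1810010D01Rik and Drg2, all at r = 0.99. These were the highest values of all genes over only 6 points.

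Some other secretions of the male accessory glands, such as lactoferrin, were abundant in all 5 grafts, while others were near the floor in some grafts. Svs2 was at 12.58 on the log2 scale in FS005, 2.49 in FS007 and 2.05 in FS008. Of 22 listed genes, 21 were tested between grafts and MEFs, and 20 were called higher and 0 lower, beside 29.9% of all genes called higher, with a median log2 fold change of 7.01 against 0.26 over all genes. Between prostate and grafts, 5 were called higher in prostate and 9 lower, beside 10.3% and 23.0% of all 16353 genes tested. Quantile normalization turned that split over all genes from 1683 and 3757 to 3176 and 2455. Some listed genes passed the filter on low values only through the grafts. Klk1, Crisp1 and Pip had means of -0.47, -0.05 and -0.62 in MEFs and 0.30, 1.14 and 0.89 in prostate. Such genes could hardly be called in the other direction, and the counts hold that limit. Between prostate and MEFs 12 of the 22 passed the filter. Ltf, the iron-binding lactoferrin, had log2 values of 14.68 ± 1.23 in the grafts (SD, n = 5), 2.09 ± 2.63 in prostate (SD, n = 6) and 1.22 ± 1.70 in MEFs (SD, n = 6). Prostate minus grafts was -12.59 on the log2 scale (adjusted p = 6.64e-06 in limma). Klk1, a tissue kallikrein also made in the kidney, had 10.55 ± 1.62 in the grafts (SD, n = 5) and 0.30 ± 1.85 in prostate (SD, n = 6), a difference of -10.25 (limma, adjusted p = 7.97e-06). Crisp1 was also lower in prostate than in the grafts (-7.61, adjusted p = 7.2e-05 from limma).

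The opposite was seen for Rnase1, a secreted ribonuclease, and Wfdc3, a protein with whey acidic protein domains. Rnase1 was at 13.99 ± 0.23 in prostate (SD, n = 6) and 6.36 ± 2.33 in the grafts (SD, n = 5), 7.63 higher on the log2 scale (limma, adjusted p = 2.42e-05). Wfdc3 was higher in prostate by 6.93 (limma, adjusted p = 5.6e-05), with grafts at 6.57 ± 2.22 (SD, n = 5). Kidney and seminal vesicle markers, whose sums are given above, differed among these grafts, and their part was not tested. All 6 seminal vesicle markers are also among the 22 listed secretions. Leaving out MEFs FS015 to FS018 reduced the genes called higher in the grafts to 13 of 22 tested. Without FS007 or FS008 the number called lower in prostate was 13 or 12.

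The transcription regulators of luminal cells were present in the grafts, with gaps. Of 12 listed genes, 6 were called higher and 2 lower in the grafts than in MEFs, with a median log2 fold change of 2.25, beside 29.9% of all genes called higher and 1942 of 16121 lower. Between prostate and grafts, 9 were called higher in prostate and 1 lower, beside 10.3% and 23.0% of all genes. Hoxb13, the homeobox gene of the caudal body and prostate, was at 12.91 ± 0.27 in prostate (SD, n = 6) and 4.57 ± 1.85 in the grafts (SD, n = 5), a difference of 8.34 (limma, adjusted p = 2.93e-06). In MEFs it was at 3.34 ± 1.25 (SD, n = 6), and the grafts were not called against MEFs (1.23, adjusted p = 0.233 from limma). Gata2 and Gata3, zinc-finger factors of urogenital epithelium, were higher in prostate by 4.87 (adjusted p = 9.5e-07) and 4.30 (adjusted p = 0.000901) in limma. Foxa1, the forkhead pioneer factor that was also delivered by virus, was at 10.25 ± 1.03 in the grafts (SD, n = 5), 12.73 ± 0.26 in prostate (SD, n = 6) and 4.24 ± 0.64 in MEFs (SD, n = 6). Reads of the viral and endogenous copies are counted together, so its call does not show that the endogenous gene was on. In the study's supplement, FS002, FS003 and FS005 had reads of the Foxa1 untranslated region, which the viral copy lacks, and FS007 and FS008 had none. Elf3, an epithelial ETS factor, was the 1 gene of the list called lower in prostate (-2.68, adjusted p = 7.31e-06 from limma).

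Genes of the secretory machinery were nearly all higher in prostate than in the grafts. Of 18 listed genes, 17 were called higher in prostate than in the grafts and 1 lower, beside 10.3% and 23.0% of all genes, with a median log2 fold change of 2.16 against -0.11 over all genes. Agr2, a disulfide isomerase of mucosal glands, was at 14.10 ± 0.28 in prostate (SD, n = 6) and 10.49 ± 1.04 in the grafts (SD, n = 5), a difference of 3.61 (limma, adjusted p = 2.24e-05). Tmed3, a cargo receptor of early secretory vesicles, was higher in prostate by 3.49 (adjusted p = 1.51e-06 from limma). Sdf2l1 and Creld2, both made under load on the endoplasmic reticulum, were higher by 2.99 (adjusted p = 8.46e-07 from limma) and 2.94 (adjusted p = 3.03e-05 from limma). Tmed6 was the exception, at 0.13 ± 1.57 in prostate (SD, n = 6) and 5.55 ± 1.78 in the grafts (SD, n = 5), a difference of -5.42 (limma, adjusted p = 0.000675). Between grafts and MEFs the list was split, with 3 genes called higher and 6 lower, beside 29.9% of all genes higher and 1942 of 16121 lower, and with a median of -0.30, which turned to 0.03 with quantile normalization. The 3 lists were written with earlier results of these data known.

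**Figure D5:**
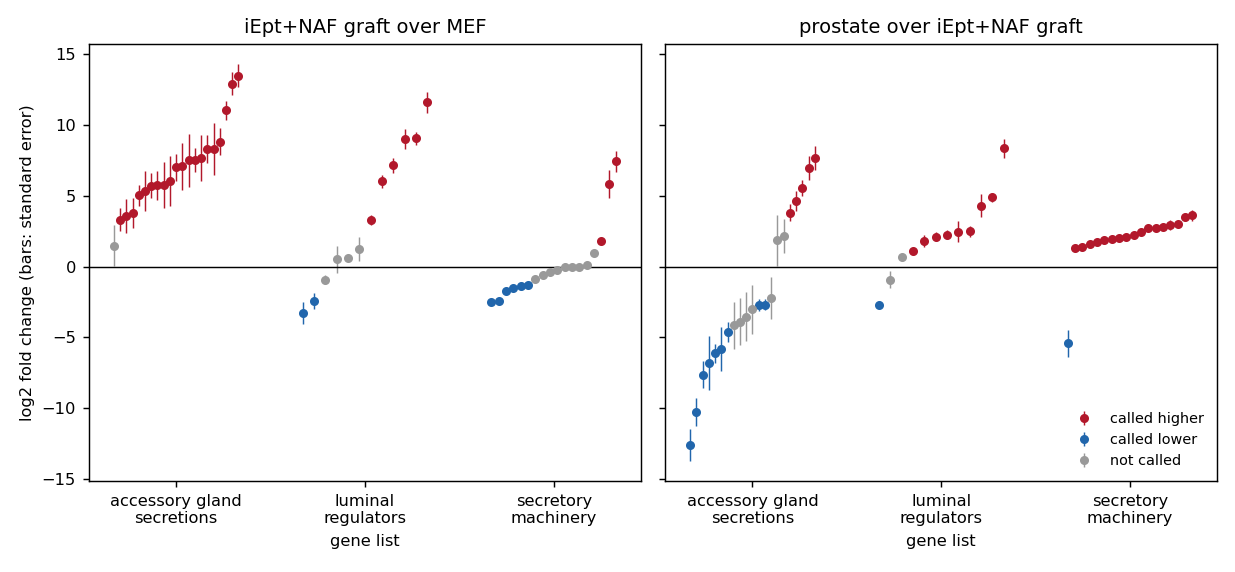
Log2 fold change of each listed gene in 2 limma comparisons, with 1 point per gene and bars for the standard error, red for called higher, blue for called lower and grey for not called. Of the secretory machinery genes 17 of 18 lie above 0 in the right panel, while the accessory gland secretions spread from -12.59 to 7.63.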

How the data were processed

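The submitters' processing notes name bcl2fastq 1.8.4, TopHat, Cufflinks and the mm9 build, with no role or order. The authors deposited log2 values of DESeq-normalized counts per gene, in a table of 17 libraries and another of 2. Values of 11.5 to 15 all fell within 0.05 reads of a whole number after removal of a shared constant of 1.61. Lower values carry scatter, so no count test was run and depth was estimated from that step. Percent of prostate level and read shares used normalized counts, obtained by inverting an assumed variance-stabilizing form of the values. At high values this nearly equals removal of the constant, and it puts 0 reads at -0.31. The transform behind the deposited values is not stated, so low read counts depend on that assumption. Groups, taken from the labels, were compared within the first table with limma 3.58.1 in R 4.3.3 (trend), keeping genes whose linear mean reached 10. A call needed a Benjamini-Hochberg adjusted p under 0.05 and a log2 difference of 1 or more in either direction. The test was checked on simulated data. Single genes used exact two-sided permutation tests over samples (smallest p 0.0022). Other steps ran in Python 3.11.15 with scipy 1.17.1. Positions of genes follow GENCODE M1 on mm9, and promoter windows follow RefSeq on GRCm38.p6. The 10 genes and the lists were chosen with earlier results of these data known. Named genes outside the 10 were the 5 with the largest called change per list, the 5 most like by correlation, and those a result turned on. Alternatives changed the scale, the filter, the normalization, the fitted samples and the minimum fold change, left out each graft in turn, or left out MEFs FS015 to FS018. Averaging MEFs in 3 like pairs and the use of single prostate libraries as reference were added after the data were seen. Labels do not say that libraries came from separate animals or cultures, so p-values measure the spread between these samples. Some items are not reported here.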

Additional observations from a re-analysis of the deposited data

Results flagged for a closer look

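In 33 sets of values (10 genes and their summed share, in 3 groups) a sample stood far from the others in 2, where chance alone would give about 1.65. Spink3 in iEpt+NAF graft FS007 was at 7.45 on the log2 scale, against 10.59 to 11.34 in the other 4 grafts. The summed share of the 10 genes in MEF library FS015 was 0.0418% of reads, against 0.0009% to 0.0160% in the other 5 MEF libraries.

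In the second table, which enters no comparison between groups, 4 genes of iEpt only graft FS022 were above every MEF library. Tgm4 was at 421 RPM, where MEFs had at most 49.0 and iEpt+NAF grafts at most 68.9. 9530053A07Rik was at 270, against 169.7 and 41.5. Spink3 was at 30.9, with 16.9 as the MEF and 184.9 as the iEpt+NAF maximum, and Defb50 at 7.84, against 4.94 and 105. In FS023 none of the 10 genes met this condition.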

How the results depend on the processing

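Depth limits the lowest values: under 3 reads a gene's value is mostly scatter, and the second table has 6629666 and 9662062 reads. Without a minimum fold change 10573 genes were called between grafts and MEFs, 11772 between prostate and MEFs and 9093 between prostate and grafts. The number of the 10 genes called between grafts and MEFs was 1, and 2 with quantile normalization, 2 with all 17 samples in one fit (Ms4a5 lower beside Spink3 higher in both) and 6 without FS015 to FS018. In the fit of all 17 samples Ms4a5 passed the filter on low values only because prostate libraries were counted in. It had 0 to 4 reads in the grafts, 35, 6, 8 and 6 in FS015 to FS018 and 3 and 0 in FS019 and FS020. The Ms4a5 calls are not read as a result. Without FS015 to FS018 fewer MEF samples enter, and Spink3 kept its call with each graft left out (adjusted p = 0.00949 to 0.0292, limma) and when the MEFs were averaged in like pairs (adjusted p = 0.00396, limma), an alternative chosen after seeing the data. Quantile normalization turned the log2 fold change of Msmb to -1.84, of 9530002B09Rik to -0.49, of Tgm4 to -0.0887 and of 9530053A07Rik to -0.37, none of them called, and the cause was not tested. With 1 graft left out in turn, the log2 fold change ranged from -0.79 to 0.76 for Msmb, whose sign turned without FS002 or FS003, and from -0.00825 to 0.32 for 9530053A07Rik, whose sign turned without FS003. Their exact permutation p then ran from 0.524 to 0.810 and from 0.848 to 0.981. On linear values the difference between grafts and MEFs turned for Sbp, Pbsn, 9530002B09Rik and 9530053A07Rik, with exact permutation p = 0.740, 0.896, 0.680 and 0.229. The median percent of the prostate level in FS015 was 0.182% against the mean of 6 libraries and 0.272% against FS013 alone, and in FS002 it was 0.117% and 0.187% against FS010 alone. Measured against the other genes only, the summed share was 28.0% in FS009, 19.2% in FS010, 24.3% in FS011, 21.2% in FS012, 17.5% in FS013 and 28.4% in FS014, since the 10 genes leave the total. Quantile normalization left 2 pairs with r above 0.8 and 3 below -0.8 among the prostate libraries, where Tgm4 had one constant value and gave no correlation. Pbsn and 9530053A07Rik then had r = 0.62, so no pair among Pbsn, Tgm4 and 9530053A07Rik stayed above 0.8. Leaving out 1 graft in turn gave 6370 to 6858 calls between grafts and MEFs and 5051 to 5843 between prostate and grafts. No paired analysis was possible because the replicate numbers were given in accession order and tie no sample of one group to a sample of another.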
